A study of Mus musculus with 8 samples.

Results

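The genes described are 9 genes of cortical glutamatergic neuron identity, taken by symbol from the 22337 genes of the deposited table, and all 9 were listed there. They were the basic helix-loop-helix transcription factor genes Neurod1, Neurod2 and Neurod6, the T-box gene Tbr1, the zinc finger gene Fezf2, the homeobox gene Emx1, and the vesicular glutamate transporter genes Slc17a6, Slc17a7 and Slc17a8. Their RNA was measured in the nucleus accumbens (ventral striatum) of male C57BL/6 mice that had received morphine, an opioid, or saline as the control. There were 4 libraries per group, and the series concerns chronic morphine exposure. The labels state neither age, dose, schedule nor interval before dissection, nor whether each library came from a separate animal, so p-values reflect only how these libraries vary, and that variation may be technical. RNA was copied into full-length cDNA from an oligo-dT primer and amplified by PCR before sequencing.

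Neurons of the cerebral cortex that release glutamate arise from the pallium, the dorsal part of the embryonic forebrain. Emx1 marks that territory, the Neurod factors drive and maintain the differentiation of its neurons, Tbr1 specifies early-born and layer 6 neurons, and Fezf2 specifies neurons of layer 5 that project below the cortex. The 3 transporters load glutamate into synaptic vesicles: Slc17a7 (VGLUT1) is the main form in cortex, Slc17a6 (VGLUT2) is the main form in thalamus and other subcortical nuclei, and Slc17a8 (VGLUT3) is found in striatal cholinergic interneurons and some serotonergic neurons. The principal cells of the nucleus accumbens are medium spiny neurons, which release GABA. Glutamatergic axons enter the region from cortex, thalamus and amygdala, while most transcripts of these genes stay in the distant cell bodies.

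The values were FPKM, a fragment count scaled by transcript length and by the mapped fragments of the library, so levels can be set side by side between genes. Library sums lay between 480003.6 and 540104.1 FPKM, and the read depth behind them is unknown. Of the 9 genes 8 reached an FPKM of 1 in at least 4 libraries and were tested, and Slc17a8 was not. Saline replicate 3 stood apart from the other libraries before any comparison. It held the lowest value of 8 of the 9 genes and the highest of the remaining one, Slc17a8. The change of each of the 9 genes is therefore also given without it, and that of other genes and lists only in part.

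The start regions of the 4 genes whose morphine values all lay above all saline values (Neurod1, Neurod2, Neurod6 and Slc17a7) are shown first, because Neurod proteins bind E-boxes, the sequence CANNTG. Bases before the RefSeq start that lie in no annotated exon of the same strand are printed 5′ to 3′ (RefSeq windows, build GRCm38.p6), with E-boxes in capitals. The stretches are chr2:79456786-79456886 (minus strand) for Neurod1, chr11:98329649-98329895 (minus strand) for Neurod2, chr6:55681264-55681513 (minus strand) for Neurod6 and chr7:45163671-45163920 (plus strand) for Slc17a7.
Neurod1: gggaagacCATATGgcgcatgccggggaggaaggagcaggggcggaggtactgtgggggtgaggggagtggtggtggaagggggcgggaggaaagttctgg
Neurod2: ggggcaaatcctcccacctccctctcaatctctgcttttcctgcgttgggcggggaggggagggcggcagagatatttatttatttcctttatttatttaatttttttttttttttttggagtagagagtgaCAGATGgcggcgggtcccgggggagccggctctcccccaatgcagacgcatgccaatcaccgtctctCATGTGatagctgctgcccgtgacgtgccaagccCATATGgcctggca
Neurod6: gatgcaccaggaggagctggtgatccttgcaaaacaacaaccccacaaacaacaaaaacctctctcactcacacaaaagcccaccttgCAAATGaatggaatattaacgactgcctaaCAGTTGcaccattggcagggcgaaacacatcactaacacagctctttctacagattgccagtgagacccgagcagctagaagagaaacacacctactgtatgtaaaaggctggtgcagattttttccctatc
Slc17a7: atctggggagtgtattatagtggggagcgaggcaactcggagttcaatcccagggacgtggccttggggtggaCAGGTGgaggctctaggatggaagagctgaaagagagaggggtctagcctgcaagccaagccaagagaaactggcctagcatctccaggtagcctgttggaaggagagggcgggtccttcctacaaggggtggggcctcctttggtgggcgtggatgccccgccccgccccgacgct
These stretches hold 1 E-box for Neurod1, 3 for Neurod2, 2 for Neurod6 and 1 for Slc17a7.

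All 9 genes had a RefSeq window of 250 bases before to 50 after a start, and Slc17a6 and Slc17a8 had more than one start, so that there were 11 windows. An E-box lay in 10 of the 11, where 72.3% of all 32851 windows of that length hold one, and Fezf2 was the gene without it. CAGATG or its reverse complement CATCTG, the form often bound by Neurod factors, which is itself an E-box, lay in 3 of 11 windows (Neurod2, Slc17a6 and Slc17a8) against 17.2% of all windows. The T-box sequence AGGTGTGA lay in none of the 11 on either strand and in 1.3% of all windows. The homeodomain core TAATTA lay in 3 (Tbr1, Slc17a6 and Slc17a8) against 5.3%. These matches are letters in a window, not measured binding.

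The Neurod genes and Slc17a7 were higher in every morphine library than in every saline library, Emx1 and Tbr1 overlapped between the groups, and Slc17a8 was near 0 in most libraries. Of the 8 tested genes 1 rose with morphine, Neurod1, none fell and 7 did not pass (limma, Benjamini-Hochberg adjusted p under 0.05 over 12536 genes). Over all genes tested 2.52% passed, 1.04% higher and 1.48% lower. The groups did not overlap in 4 of the 8, all higher with morphine, where 6.56% of all tested genes had that arrangement. The median log2 change of the 8 was 0.84, and 0.57 without saline replicate 3, where that of all tested genes was 0.012. A log2 change is the mean of log2(FPKM + 1) in morphine less that in saline, and for genes at low FPKM it is smaller than the change in FPKM itself.

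**Figure D1:**
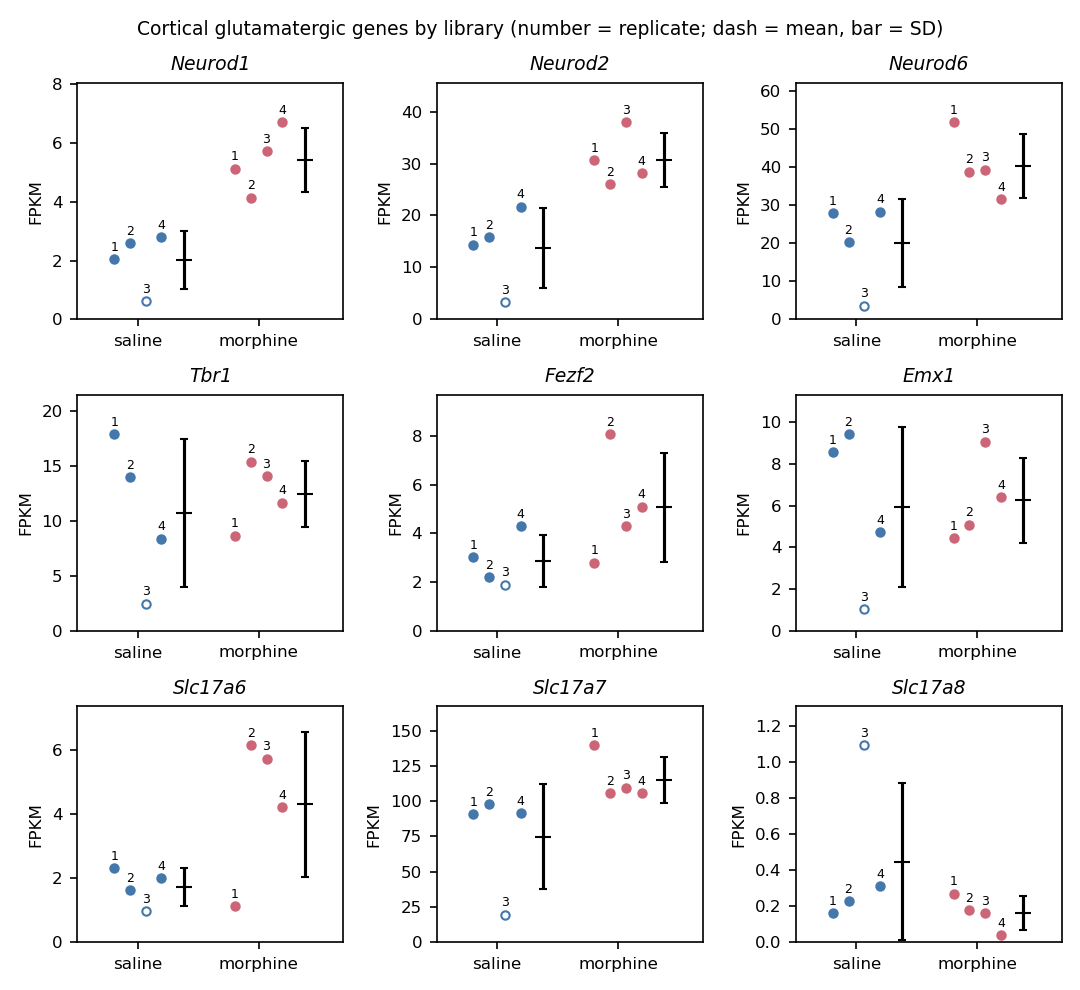
FPKM of each of the 9 genes (y axis, linear from 0) in the saline and morphine libraries (x axis), with 1 point per library, the replicate number above it, and the mean and SD as a dash and bar. The open point is saline replicate 3, which is lowest in 8 genes and highest in Slc17a8 at 1.09 FPKM.

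Neurod1, a factor of neuronal differentiation that mature glutamatergic neurons express at low levels (ENSMUSG00000034701, chromosome 2, 79452521 to 79456751, minus strand, GRCm38), was listed at 2.05, 2.59, 0.63 and 2.80 FPKM in saline replicates 1 to 4 and at 5.12, 4.13, 5.71 and 6.69 in morphine replicates 1 to 4. The lowest morphine value was above the highest saline value, also when saline replicate 3 is left aside. The means were 2.02 ± 0.977 and 5.41 ± 1.07 FPKM (SD, n = 4 each), with a log2 change of 1.14 ± 0.26 (SE, limma adjusted p = 0.0471). Without saline replicate 3 the saline mean was 2.48 ± 0.387 FPKM (SD, n = 3) and the log2 change 0.87 ± 0.17 (limma adjusted p = 0.0311). Neurod1 also passed without saline replicate 4 (adjusted p = 0.0383). It missed the threshold without saline replicate 1 or 2 (0.0801 and 0.0901) and without morphine replicate 1, 2, 3 or 4 (0.0911, 0.0733, 0.139 and 0.124). Without morphine replicate 3 or 4, or saline replicate 2, limma called 0 of all 12536 genes, with 1953, 2136 and 2005 at an unadjusted p under 0.05. With all 8 libraries the adjusted p of Neurod1 was 0.0704 with a pseudocount of 0.1, 0.105 with no filter on low values and 0.0515 with no mean-variance trend.

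Neurod2, which acts in cortical neurons at the time they form synapses (ENSMUSG00000038255, chromosome 11, 98325415 to 98329648, minus strand), had 14.38, 15.80, 3.26 and 21.71 FPKM in saline replicates 1 to 4. In morphine replicates 1 to 4 it had 30.70, 25.98, 37.91 and 28.13 FPKM. The groups did not overlap, and saline replicate 3 was at 18.8% of the mean of the other saline libraries. The log2 change was 1.32 ± 0.42 (SE) and did not pass (limma adjusted p = 0.121). Without saline replicate 3 it was smaller and passed, at 0.80 ± 0.17 (limma adjusted p = 0.0389), with means of 17.3 ± 3.89 (SD, n = 3) and 30.7 ± 5.19 FPKM (SD, n = 4).

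Neurod6, a marker of postmitotic cortical and hippocampal projection neurons (ENSMUSG00000037984, chromosome 6, 55677822 to 55681263, minus strand), had 27.95, 20.41, 3.59 and 28.33 FPKM in saline replicates 1 to 4 and 51.86, 38.89, 39.41 and 31.65 in morphine replicates 1 to 4. The gap between the groups was narrow, from 28.33 in saline replicate 4 to 31.65 in morphine replicate 4. The log2 change was 1.26 ± 0.50 (SE, limma adjusted p = 0.194), and 0.64 ± 0.17 without saline replicate 3 (limma adjusted p = 0.084), so that leaving that library out lowered the value and did not bring it past the threshold. Saline replicate 3 stood at 14.0% of the mean of the other saline libraries.

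Tbr1 (ENSMUSG00000035033, chromosome 2, 61802930 to 61814114, plus strand), the T-box factor of layer 6 and early-born neurons, had 17.90, 13.98, 2.47 and 8.39 FPKM in saline replicates 1 to 4. In morphine replicates 1 to 4 it had 8.64, 15.38, 14.09 and 11.64 FPKM. The highest value of all was a saline library, and the groups overlapped with and without saline replicate 3. The log2 change was 0.43 ± 0.44 (SE, limma adjusted p = 0.636) and turned to −0.07 ± 0.25 without saline replicate 3 (limma adjusted p = 0.916).

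Emx1 (ENSMUSG00000033726, chromosome 6, 85187438 to 85204462, plus strand), the homeobox gene of the dorsal forebrain, followed a course like that of Tbr1. It had 8.54, 9.43, 1.05 and 4.73 FPKM in saline replicates 1 to 4 and 4.44, 5.08, 9.06 and 6.41 in morphine replicates 1 to 4. Saline replicates 1 and 2 were among the highest values for both genes, and saline replicate 4 lay with the lower morphine libraries. The log2 change of Emx1 was 0.27 ± 0.45 (SE, limma adjusted p = 0.783), and −0.23 ± 0.25 without saline replicate 3 (limma adjusted p = 0.682). For Emx1 and Tbr1 the direction thus rested on 1 saline library.

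Fezf2, the determinant of layer 5 subcortical projection neurons (ENSMUSG00000021743, chromosome 14, 12342094 to 12348189, minus strand), had 3.02, 2.21, 1.89 and 4.30 FPKM in saline replicates 1 to 4. In morphine replicates 1 to 4 it had 2.80, 8.08, 4.29 and 5.10 FPKM. Morphine replicate 2 was the highest, and morphine replicates 1 and 3 lay within the saline range. The log2 change was 0.62 ± 0.27 (SE, limma adjusted p = 0.229). Saline replicate 3 was closer to the rest here than in the other factors, at 59.5% of the mean of the other saline libraries, and without it the log2 change was 0.50 ± 0.28 (limma adjusted p = 0.379).

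**Figure D2:**
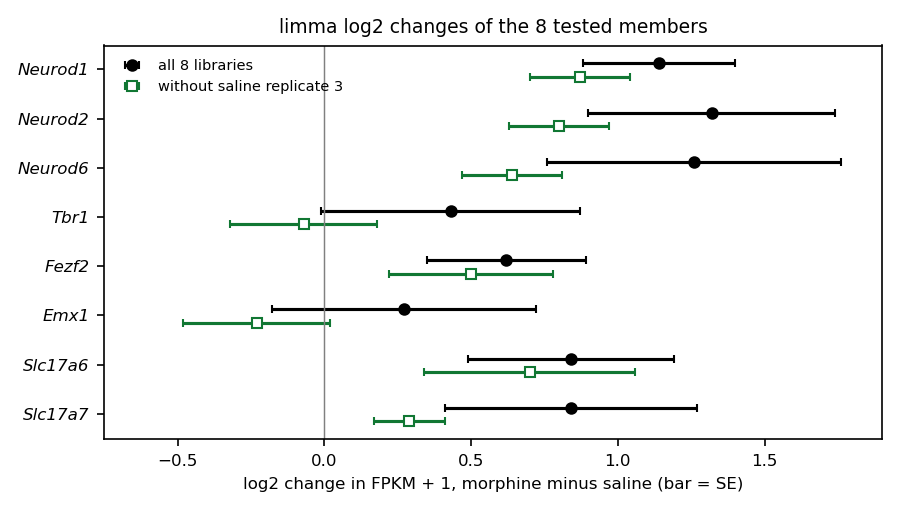
Log2 change in FPKM + 1, morphine minus saline (x axis), of the 8 tested genes with SE bars, from all 8 libraries (filled circles) and without saline replicate 3 (open squares). Neurod1 stays near 1 (1.14 and 0.87), while Tbr1 and Emx1 cross 0 (−0.07 and −0.23 without that library).

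Slc17a7, the vesicular transporter of cortical terminals and the most abundant of the 9 genes (ENSMUSG00000070570, chromosome 7, 45163949 to 45176142, plus strand), had 90.82, 98.02, 19.61 and 91.41 FPKM in saline replicates 1 to 4. In morphine replicates 1 to 4 it had 139.48, 105.76, 109.48 and 105.76 FPKM. Apart from saline replicate 3 the saline values were close together (93.4 ± 4.00, SD, n = 3), and the morphine values lay just above them except for morphine replicate 1. The log2 change was 0.84 ± 0.43 (SE, limma adjusted p = 0.307), and 0.29 ± 0.12 without saline replicate 3 (limma adjusted p = 0.234). The ratio of the arithmetic mean FPKM values, a different quantity, was 1.54 with and 1.23 without that library. The groups did not overlap in either case, and neither change passed.

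Slc17a6, the transporter of thalamic and other subcortical glutamatergic neurons (ENSMUSG00000030500, chromosome 7, 51622006 to 51671119, plus strand), had 2.32, 1.63, 0.97 and 2.00 FPKM in saline replicates 1 to 4 and 1.14, 6.14, 5.73 and 4.21 in morphine replicates 1 to 4. Morphine replicate 1 lay within the saline range and the other 3 morphine libraries lay above it. The log2 change was 0.84 ± 0.35 (SE, limma adjusted p = 0.209), and 0.70 ± 0.36 without saline replicate 3 (limma adjusted p = 0.341). Without morphine replicate 1 it was 1.23 and passed (limma adjusted p = 0.0393). That library had the highest Slc17a7 and Neurod6 of all 8.

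Slc17a8, the transporter found in cholinergic interneurons (ENSMUSG00000019935, chromosome 10, 89574020 to 89621253, minus strand), had 0.16, 0.23, 1.09 and 0.31 FPKM in saline replicates 1 to 4. In morphine replicates 1 to 4 it had 0.27, 0.18, 0.16 and 0.04 FPKM. It reached 1 FPKM only in saline replicate 3, and the groups overlapped. An exact two-sided permutation test over the 70 assignments of the 8 libraries gave p = 0.20 for a difference of −0.28 in log2(FPKM + 1), where the smallest p this design allows is 0.0286. Without saline replicate 3 the difference was −0.09 (exact permutation p = 0.371).

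In saline the order of mean level was Slc17a7, Neurod6, Neurod2, Tbr1, Emx1, Fezf2, Neurod1, Slc17a6 and Slc17a8, and the ranges of every pair of neighbours overlapped. For some pairs the overlap rested on saline replicate 3. In saline replicates 1, 2 and 4 Slc17a7 (90.82 to 98.02 FPKM) lay apart from Neurod6 (20.41 to 28.33). Emx1 (4.73 to 9.43) there lay apart from Fezf2 (2.21 to 4.30), and Slc17a6 (1.63 to 2.32) from Slc17a8 (0.16 to 0.31). In morphine Neurod1 stood before Fezf2, and the other places were the same. In morphine the ranges of Slc17a7 (mean 115 FPKM) and Neurod6 (40.5), of Neurod2 (30.7) and Tbr1 (12.4), and of Slc17a6 (4.30) and Slc17a8 (0.163) did not overlap, and those of the other neighbours did. Neurod6 exceeded Neurod2 in 4 of 4 saline and 4 of 4 morphine libraries, and Emx1 exceeded Neurod1 in 2 of 4 morphine libraries.

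Slc17a7 made up most of the summed FPKM of the 3 transporters in each library. Its share was 97.3, 98.1, 90.5 and 97.5% in saline replicates 1 to 4 and 99.0, 94.4, 94.9 and 96.1% in morphine replicates 1 to 4. The lowest share, in saline replicate 3, went with 5.00% for Slc17a8, which held at most 0.33% elsewhere. Slc17a6 took 0.809% in morphine replicate 1 and 5.48, 4.97 and 3.83% in the other morphine libraries, against 2.49, 1.63, 4.48 and 2.13% in saline, so that both extremes lay in the morphine group. No test was made of these shares, since the genes were chosen with results known.

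The factors differed in how they moved relative to each other. The ratio of Emx1 to Neurod2 was 0.594 and 0.597 in saline replicates 1 and 2, 0.322 in replicate 3 and 0.218 in replicate 4, and 0.145, 0.196, 0.239 and 0.228 in morphine replicates 1 to 4. That of Tbr1 to Neurod2 was 1.24, 0.885, 0.758 and 0.386 in saline and 0.281, 0.592, 0.372 and 0.414 in morphine. In both ratios saline replicate 4 lay among the morphine libraries. Neurod6 to Neurod2 showed no such split, at 1.94, 1.29, 1.1 and 1.3 in saline and 1.69, 1.5, 1.04 and 1.13 in morphine.

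**Figure D3:**
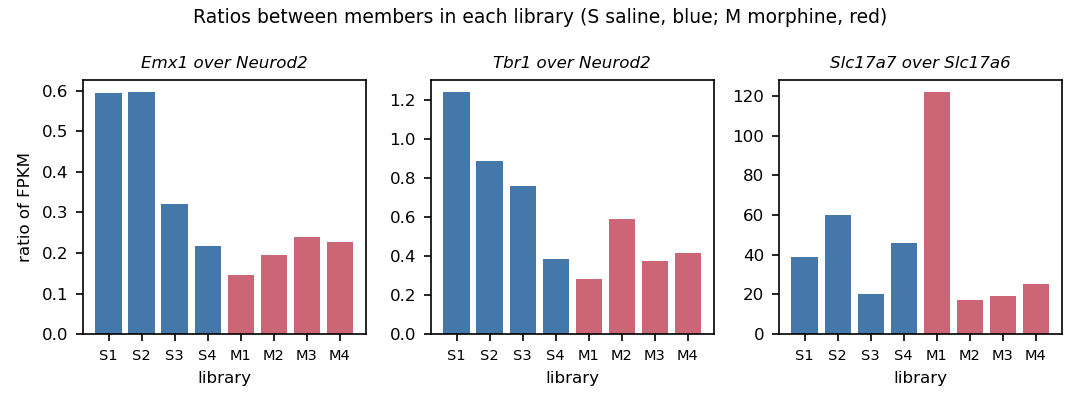
Ratios of FPKM between members (y axes, linear from 0) in each library (x axis; S saline in blue, M morphine in red, with the replicate number). Emx1 and Tbr1 are highest relative to Neurod2 in saline replicates 1 and 2, and Slc17a7 relative to Slc17a6 is highest in morphine replicate 1, at 122.

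Across the 8 libraries log2 levels of Slc17a7 went closest with those of Neurod6 (Pearson r = 0.98, and 0.82 over the 7 libraries without saline replicate 3). Neurod2 had 0.96 and 0.78 with Neurod6 and 0.95 and 0.90 with Neurod1. Emx1 went with Tbr1 (0.93 and 0.70), and Fezf2 with Slc17a6 (0.86 and 0.82). Between Emx1 or Tbr1 on one side and Neurod1, Neurod2, Neurod6 or Slc17a7 on the other, r lay between 0.59 and 0.82 over 8 libraries and between −0.56 and −0.24 over the 7 without saline replicate 3. These are descriptions over libraries that share tissue, scaling and saline replicate 3, with no test.

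**Figure D4:**
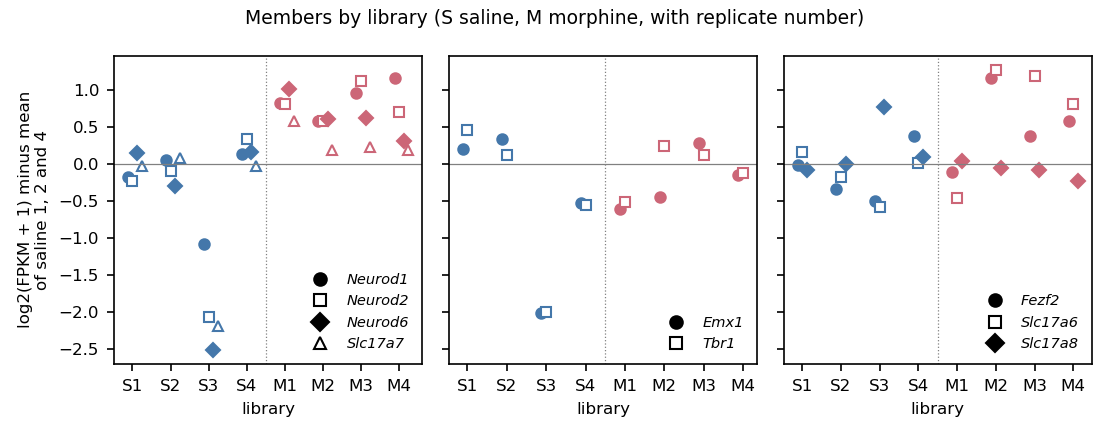
Log2(FPKM + 1) of each gene minus its mean over saline replicates 1, 2 and 4 (y axis), in each library (x axis; S saline, blue, M morphine, red). All 4 genes on the left lie above 0 in every morphine library, Emx1 and Tbr1 in the middle scatter around 0 there, and Slc17a6 on the right is below 0 in morphine replicate 1 and above 0 in the other 3.

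The tested genes with the most similar course, by Pearson r of log2(FPKM + 1) over 8 libraries, were named for each member. For Neurod1 they were Incenp (r = 0.985, and 0.96 over 7 libraries without saline replicate 3), Sstr3 (0.983 and 0.96) and Nr2f1 (0.980 and 0.98), a nuclear receptor gene that patterns the cortex. For Neurod2 they were Vxn (0.991 and 0.96), Slc35f4 (0.990 and 0.98) and Slc24a3 (0.986 and 0.95). For Neurod6 they were Stmn1 (0.997 and 0.98), Rtn3 (0.995 and 0.98) and Coro2a (0.992 and 0.94), and for Slc17a7 they were Nrn1 (0.992 and 0.84), Fbxw7 (0.992 and 0.93) and Gpr22 (0.990 and 0.86). Vxn had 22.11 FPKM in saline replicate 3, 95.82 to 146.7 in saline replicates 1, 2 and 4, and 173.1 to 248 with morphine, so it was spread like Neurod2. Tbr1 went with Fkbp1b (0.989 and 0.96) and Emx1 with Smap1 (0.980 and 0.93). Rras2 was among the 3 genes of both (0.954 and 0.78 for Tbr1, 0.960 and 0.83 for Emx1). Fezf2 went with Rdh11 (0.966 and 0.95) and Slc17a6 with Thra (0.967 and 0.96), the thyroid hormone receptor gene.

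Each member lay beside different genes on its chromosome. Neurod2 stood 18.8 kb from Ppp1r1b, which encodes the dopamine signal relay DARPP-32 of medium spiny neurons, with no other gene of the table between them. Ppp1r1b had 318.2, 341.0, 1454.6 and 321.6 FPKM in saline replicates 1 to 4 and 118.1, 64.6, 72.8 and 65.0 in morphine replicates 1 to 4, so the 2 genes ran in opposite directions in saline replicate 3 and in the morphine group. Ppp1r1b fell by 2.60 ± 0.44 on the log2 scale (SE, limma adjusted p = 0.0247). It missed the threshold without saline replicate 2 or morphine replicate 2, 3 or 4 (adjusted p 0.0682, 0.0594, 0.0895 and 0.073). Of the 18 nearest tested protein-coding neighbours of the 9 genes it was the only one past the threshold. Psmd14, a proteasome subunit gene 2.55 kb from Tbr1, had means of 88.8 and 90.8 FPKM in saline and morphine (limma adjusted p = 0.877), and Pih1d1, 3.88 kb from Slc17a7, had 23.0 and 29.7 (limma adjusted p = 0.161).

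Other transcription factor genes of pallial excitatory neurons formed a separate list. Of 20 listed, 16 were tested, 2 rose, none fell and 14 did not pass, and the median log2 change was 0.08. The log2 change was positive in 9 of the 16 and negative in 7. Etv1, a layer 5 factor, went from 17.2 ± 5.23 to 36.9 ± 10.3 FPKM (SD, n = 4 each; limma adjusted p = 0.0381). Bcl11a, a zinc finger factor of cortical projection cells, had means of 37.7 ± 4.07 and 57.6 ± 7.4 FPKM (SD, n = 4 each; limma adjusted p = 0.0402). Each of these passed only when saline replicate 4 was the library left out, and without saline replicate 3 both stood at an adjusted p of 0.052. Nr2f1 had 1.02 FPKM in saline replicate 3, 4.85 to 5.45 in saline replicates 1, 2 and 4, and 7.34 to 11.22 with morphine; its log2 change of 1.17 ± 0.34 (SE) missed the threshold (limma adjusted p = 0.0927) and, with saline replicate 3 left out, met it (0.77, limma adjusted p = 0.0375).

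None of 21 tested marker genes of cortical projection neurons passed. The log2 change was positive in 15 of the 21 and negative in 6, with a median of 0.31. Without saline replicate 3 that median was 0.05. Cck, a neuropeptide gene expressed by cortical neurons, had 111.8 FPKM in saline replicate 3, 650.3 to 932.2 in saline replicates 1, 2 and 4, and 887 to 1476 with morphine (limma adjusted p = 0.202). Nrgn, a postsynaptic calmodulin-binding protein gene, had a log2 change of 0.65 ± 0.21 (SE, limma adjusted p = 0.128). Mal2 had 0.52 ± 0.21 (SE, limma adjusted p = 0.199). Tshz2 went the other way, with −0.46 ± 0.18 (SE, limma adjusted p = 0.196), and −0.39 without saline replicate 3.

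Among 13 genes of glutamate supply and uptake 1 rose, none fell and 12 did not pass, with a median log2 change of −0.14. The one that rose was Slc1a1, the neuronal glutamate transporter gene of the plasma membrane, from 34.0 ± 3.65 to 49.0 ± 3.47 FPKM (SD, n = 4 each; limma adjusted p = 0.0435). Slc1a1, too, kept an adjusted p under the threshold only when saline replicate 4 was left out (0.052 without saline replicate 3). Slc1a2, the main astrocyte glutamate transporter gene, had a log2 change of −0.56 ± 0.15 (SE, limma adjusted p = 0.0814) and Slc38a3, a glutamine exporter gene of astrocytes, −0.75 ± 0.19 (limma adjusted p = 0.0635, and 0.0438 without saline replicate 4).

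Markers of the labelled tissue were mostly lower with morphine. Of 25 listed genes of striatal medium spiny neurons, all tested, 13 fell, none rose and 12 did not pass, with a median log2 change of −2.18 (−1.62 without saline replicate 3, with 19 lower). Their summed FPKM was 7448 in saline replicate 3, 1685 to 2017 in saline replicates 1, 2 and 4, and 719 to 874.8 with morphine. Of the defining receptor genes Drd2 was close to 0 in morphine, between 0.17 and 0.55 FPKM. Adora2a lay there between 0.64 and 4.30 FPKM and Drd1 between 2.16 and 7.16. In saline replicate 3 Drd2, Adora2a and Drd1 stood at 23.1, 167.4 and 87.2 FPKM. None of the 25 was under 0.5 FPKM in all 8 libraries. The list was chosen with earlier results of these libraries known, so its direction is not independent evidence.

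The summed FPKM of the 9 cortical genes was 34.6 in saline replicate 3, 164 to 167.1 in saline replicates 1, 2 and 4, and 199.6 to 244.4 with morphine, the reverse order of the striatal sum. Slc17a7 made up much of that sum, with 19.61, 90.82 to 98.02, and 105.76 to 139.48 FPKM in the same order. Not every member followed this order, and Tbr1 and Emx1 overlapped between the groups. In bulk tissue fewer cells of a type and less RNA per cell cannot be told apart. With the mean level of the striatal list in each library as a covariate, the log2 change was 0.12 for Neurod1, 0.12 for Fezf2 and 0.03 for Slc17a6. It was −0.59 for Neurod2, −0.94 for Neurod6, −1.13 for Slc17a7, −1.60 for Tbr1 and −1.81 for Emx1, and none passed (limma adjusted p between 0.116 and 0.995). The covariate itself differs between the groups. It was 5.02, 4.91, 7.08 and 5.21 in saline replicates 1 to 4 and 3.86, 3.55, 3.36 and 3.48 in morphine replicates 1 to 4. Within the groups its spread was mostly saline replicate 3, so these adjusted changes rest largely on that library. The part of the cellular make-up of the libraries in the members' values, including any difference in which tissue was dissected, was not tested, and in this design it cannot be told apart from the treatment.

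**Figure D5:**
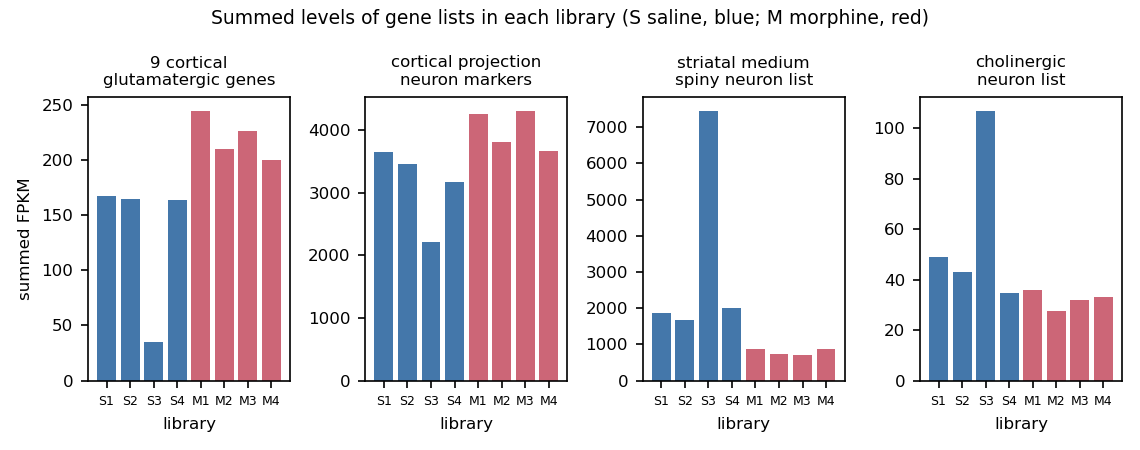
Summed FPKM (y axes, linear from 0, a scale for each panel) of 4 gene lists in each library (x axis; S saline in blue, M morphine in red). Saline replicate 3 is lowest for the 9 cortical genes (34.6) and the cortical projection neuron markers (2213), and highest for the striatal (7448) and cholinergic lists (106.8).

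Lists of other cells that could hold the transporters were read beside them. The cholinergic list, the cells in which Slc17a8 is known in striatum, had a summed FPKM of 106.8 in saline replicate 3, 34.8 to 48.8 in saline replicates 1, 2 and 4, and 27.7 to 35.8 with morphine. Most of that sum was Ache, with 72.3, 27.7 to 39.0, and 24.7 to 32.6 FPKM in the same order. The groups overlapped for Ache (limma adjusted p = 0.297). Of the 5 tested genes among 8 listed for cholinergic neurons 1 fell, and 3 fell without saline replicate 3. The 1 that fell with all libraries was Chat, the acetylcholine synthesis gene. Chat had 8.56 FPKM in saline replicate 3, 1.65 to 2.21 in saline replicates 1, 2 and 4, and 0.10 to 0.38 with morphine (log2 change −1.65 ± 0.35 SE, limma adjusted p = 0.0449). Without saline replicate 3 its log2 change was −1.22 (adjusted p = 0.00726), and it passed also without saline replicate 4. It missed the threshold without saline replicate 1 or 2 or any single morphine library (adjusted p between 0.0595 and 0.135). Slc17a8 was likewise highest in saline replicate 3, as was the striatal sum. Without that library Slc17a8 overlapped between the groups (0.16 to 0.31 FPKM in saline, 0.04 to 0.27 in morphine), unlike Chat. The part of cholinergic neurons in the Slc17a8 values was not tested. Among 6 listed serotonergic genes Slc6a4 and Fev were under 0.5 FPKM in all 8 libraries, and none of the 3 tested passed.

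For Slc17a6 the list of thalamus, hypothalamus and habenula held 18 genes, of which 6 were tested and none passed, with a median log2 change of 0.39. The defining factor genes Lhx9, Sim1, Otp and Fezf1 were under 0.5 FPKM in all 8 libraries. The summed level was between 67.2 and 131.5 FPKM in saline and between 144.5 and 314.1 in morphine. Calb2, a calcium-binding protein gene that led this list, lay between 28.7 and 95.5 FPKM in saline and between 99.2 and 261 in morphine (limma adjusted p = 0.0758, and 0.0338 without saline replicate 4), and made up much of that sum. Prkcd, a protein kinase C gene of the same list, had a log2 change of the opposite sign, with 5.49 to 14.24 FPKM in saline and 2.94 to 5.10 in morphine (log2 change −0.85 ± 0.26 SE, limma adjusted p = 0.105). The part of these regions in the Slc17a6 values was not tested.

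Lists for immature neurons and for GABAergic neurons were read in the same way, since Neurod1 also marks young neurons. All 6 tested genes of 8 listed for immature neurons had positive log2 changes, with a median of 0.46, and none passed; Neurod4 and Insm1 were under 0.5 FPKM throughout. Of 15 tested genes of GABAergic and subpallial identity none passed, with 8 positive and 7 negative log2 changes and a median of 0.07. Dlx1, a homeobox gene of subpallial neurons, had the smallest p of the list, with 4.63 to 6.66 FPKM in saline and 6.65 to 22.67 in morphine (log2 change 1.04 ± 0.28 SE, limma adjusted p = 0.08, and 0.0414 without morphine replicate 1). Gad2, a GABA synthesis enzyme gene, had 131.2 FPKM in saline replicate 3, 41.7 to 57.3 in saline replicates 1, 2 and 4, and 20.4 to 36.2 with morphine (log2 change −1.13 ± 0.32 SE, limma adjusted p = 0.087). Mitochondrially encoded genes held between 9.09 and 12.62% of summed FPKM in saline and between 6.09 and 7.94% in morphine. With these genes removed and the rest rescaled, Neurod1 had a log2 change of 1.11 (limma adjusted p = 0.0552), and of the 288 genes then called 26.7% were higher, where it had been 41.1%.

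Other forebrain regions were read from 2 lists. Of 11 genes listed for claustrum, piriform cortex and amygdala 9 were tested, 2 rose, none fell and 7 did not pass, with a median log2 change of 0.14. The log2 change was positive in 5 of the 9 and negative in 4. Gnb4 was among the negative ones, with −0.32 ± 0.17 (SE, limma adjusted p = 0.331). Nr4a2, a nuclear receptor gene marking claustrum and deep cortex, had 1.76 FPKM in saline replicate 3, 4.84 to 8.25 in saline replicates 1, 2 and 4, and 17.32 to 20.98 with morphine (log2 change 1.76 ± 0.32 SE, limma adjusted p = 0.0281, and 0.005 without saline replicate 3). It missed the threshold without saline replicate 2 or any single morphine library (adjusted p 0.0815, 0.061, 0.0617, 0.0988 and 0.073). Tfap2d, a transcription factor gene, was listed at 0 in saline replicate 3, at 0.48 to 1.34 FPKM in saline replicates 1, 2 and 4, and at 1.59 to 11.5 with morphine (limma adjusted p = 0.0471), and passed only without morphine replicate 1 when 1 library was left out (0.0315, against 0.051 to 0.136). Of 5 tested septum genes 2 fell, the neuropeptide gene Nts (log2 change −1.99, limma adjusted p = 0.0159) and Ecel1 (−2.14, 0.0449), with a list median of −0.58. Trpc4 was the 1 septum gene with a positive log2 change, at 0.77 ± 0.21 (SE, limma adjusted p = 0.0844). Nts lost the call without saline replicate 2 or morphine replicate 3 or 4 (0.068, 0.0653 and 0.0621), and Ecel1 kept it only without saline replicate 3 or 4 (0.00938 and 0.0451).

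Glial and vascular lists were read last. Of 12 astrocyte genes 3 fell (Ntsr2, Slc4a4 and Aldoc), with a median log2 change of −0.42, and of 9 tested endothelial genes 3 fell (Ly6c1, Ly6a and Slco1a4), with a median of −0.59. None of these 6 passed when saline replicate 2 was left out, nor when morphine replicate 3 or 4 was. Slc4a4 also failed without morphine replicate 1 or 2 (0.0763 and 0.058), Ly6a without saline replicate 1 (0.0514), and Aldoc passed only without saline replicate 4 (0.0362). None of 13 oligodendrocyte or 10 microglia genes passed, with medians of −0.34 and −0.12. The part of these cell types in the members' values was not tested.

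In the transcription factor families that the authors' deposited table assigns, a reading added after the values were seen, 57 bHLH genes were tested, of which 3 rose (Mycl, Bhlhe40 and Neurod1) and 1 fell (Id1), with a median log2 change of 0.01. Of 38 homeobox genes none rose and 1 fell, Isl1. Of 446 C2H2 zinc finger genes 3 rose and none fell, and of the 2 T-box genes tested neither passed. Over all genes tested 1.04% rose and 1.48% fell.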

How the data were processed

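Total RNA from the nucleus accumbens was profiled in 8 libraries, 4 saline and 4 morphine, grouped by their titles. The authors deposited 1 table of FPKM, per the file headers 1 column per library, with 2 decimals. The tools named in the submitters' processing notes are StringTie 1.3.1, RSEM, HISAT2, Bowtie2 2.2.8 and fastp 0.18.0, with build mm10. What each did, the annotation and any strand setting are not given in sources used here. Each FPKM value depends on the other transcripts of its library. A check of 5113 low values found 21.9% whole multiples within 0.1, where 20% is expected for even spread, so no depth was recovered and no count model or counting interval was used; the number of libraries limits precision.

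Symbols and 1-based coordinates came from GENCODE M21 (GRCm38, the assembly of mm10), which held 22232 of 22337 identifiers. Tafa1 and Tafa2 were matched under older symbols. The 12536 genes that reached 1 FPKM in 4 or more libraries were tested on log2(FPKM + 1) with limma 3.58.1 in R 4.3.3 (two-sided, mean-variance trend, no block). Simulated data held 12536 genes, 200 of them changed in each of 10 runs. There the test found 76.6% of genes changed by 1 and 97.1% of those changed by 2 on the log2 scale, with 4.9% false calls. Whether these rates hold for the measured libraries, among which saline replicate 3 stood apart, was not tested. The genes described, the lists and the tests were chosen with earlier results of these data known, so lists are described by counts and medians with no set test.

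Named genes were the 9 members, up to 4 genes with the smallest p of each list, and up to 3 genes most similar to each tested member; defining genes of the tissue, neighbours and family members were named after their values were seen, and 1 result is not reported here. Alternatives were another pseudocount (0.1), no filter or a minimum FPKM of 5, no trend, quantile normalization, removal of mitochondrial genes, a replicate block, a striatal covariate and leaving out each library. No 2 libraries were copies: between 0.546 and 1.216% of values were identical. The table was read with Python 3.11.15.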

Additional observations from a re-analysis of the deposited data

Results flagged for a closer look

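Among the 18 groups formed by 9 genes and 2 treatments, 3 held a library far from the other 3 of its group by Dixon's 95% criterion for 4 values, applied to log2(FPKM + 1), which chance passes in about 1 of 20 groups. Saline replicate 3 was the low library of Slc17a7 at 19.61 FPKM, with a gap over range of 0.952, and of Neurod6 at 3.59 FPKM (0.830). Morphine replicate 1 was the high library of Slc17a7 at 139.48 FPKM (0.875). The same library held the lowest Slc17a6, Fezf2, Tbr1 and Emx1 of its group, at 1.14, 2.80, 8.64 and 4.44 FPKM.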

How the results depend on the processing

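Of all genes tested 316 passed, and 17 passed with no filter on low values, 5 with the replicate block, 2 with the striatal covariate and between 0 and 450 when 1 library was left out. Of the cortical glutamatergic genes 1 passed. None passed with a pseudocount of 0.1, no filter or a minimum FPKM of 5 (Neurod1 is then not tested). None passed with no mean-variance trend, mitochondrial genes removed, the replicate block or the striatal covariate either. In these settings, in that order, limma gave 5, 3, 2, 5, 4, 5 and 3 of them an unadjusted p under 0.05. Over all genes the counts were 2503 of 12536, 3204 of 19607, 1767 of 8937 and 2493 of 12536 in the first settings. They were 2349 of 12529, 2352 of 12536 and 1266 of 12536 in the rest. The main fit gave 5 of the 8 tested members and 2526 of 12536 genes. With the striatal covariate the largest member changes were negative. Between 0 and 2 of the cortical glutamatergic genes passed when 1 library was left out, and the gene that passed without morphine replicate 1 was Slc17a6. Quantile normalization left Neurod1 past the threshold (1.23, adjusted p = 0.0472). The exact test of Slc17a8 stayed above the threshold in all settings run, with differences from −0.87 (pseudocount 0.1) to −0.09. Signs turned for Tbr1 (−0.07) and Emx1 (−0.23) without saline replicate 3, where the other libraries left out gave values up to 0.74 and 0.55. With the striatal covariate they turned for Neurod2 (−0.59), Neurod6 (−0.94), Tbr1 (−1.60), Emx1 (−1.81), Slc17a7 (−1.13), Nr2f1 (−0.36), Sox5 (−0.06), Cck (−1.12), Nrgn (−0.03), Mal2 (−0.33), Tac2 (−0.25), Slc18a3 (0.16), Slc5a7 (0.09), Gad2 (0.24) and Ecel1 (0.07); the cause was not tested. Over the settings run, list medians moved by more than the spread between libraries 23 times and by less 232 times. The replicate numbers were not treated as pairs: same-numbered saline and morphine libraries had correlations of deviations of 0.052, 0.037, −0.059 and −0.205, and the block moved the calls from 316 to 5.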
